A study of Mus musculus with 2 samples.

Results

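Among steroidogenic cells of the male mouse adrenal cortex, a small population carried high levels of Aldh1a1 RNA, and the data below describe these 62 cells among 6904 kept cells. Members were chosen by their measured Aldh1a1, Star and Hsd3b1 levels in UMIs (unique molecular identifiers, each counting 1 captured RNA molecule). A gene's UMIs scaled to 1000000 UMIs of a cell, or of a sum of cells, are written as CPM. A member had at least 500 CPM and 3 UMIs of Aldh1a1, and at least 500 CPM of Star or of Hsd3b1. Library 1 gave 32 members of 4892 kept cells (0.654%, exact Clopper-Pearson 95% interval 0.448 to 0.922), and library 2 gave 30 of 2012 (1.49%, interval 1.01 to 2.12). These intervals cover counting error only, and the shares depend on the sort. The comparison population was the Cyp11b1-high cells, with Cyp11b1 at 500 CPM or more and Aldh1a1 under 500 CPM, of which there were 872 in library 1 and 493 in library 2.

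The series holds 1 group in 2 droplet libraries, made from the adrenals of wild-type male mice that carried SF1-Cre and the Rosa mTmG reporter and were 15 weeks old. SF1-Cre is active in the SF1 steroidogenic lineage, and the reporter switches from membrane tdTomato to membrane GFP where Cre has acted. Cells that took up the DNA dye Vybrant DyeCycle Ruby and excluded DAPI were sorted, and the labels name no gate on GFP. Adrenals of the study numbered 26, and the sources used here do not say which went into which library, so the spread between libraries may be partly technical.

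The adrenal cortex is layered. The outer zona glomerulosa makes aldosterone under angiotensin II and potassium, the zona fasciculata makes glucocorticoid under ACTH (adrenocorticotropic hormone), and in mice a transient X-zone borders the medulla. WNT and hedgehog ligands are made in the outer cortex, and its cells are known to move inward as they are replaced. Aldh1a1 is a cytosolic aldehyde dehydrogenase that oxidises retinaldehyde to retinoic acid and also clears aldehydes from lipid peroxidation.

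The label of the population was checked against its markers, which were chosen with these data known and are given without a test. Aldh1a1 stood at 3052 and 4673 CPM in the summed Aldh1a1-high cells of libraries 1 and 2, against 3.63 and 7.84 CPM in Cyp11b1-high cells, which the rule fixes. Abcb1b, which encodes a P-glycoprotein exporter of drugs and steroids, had 4655 and 8283 CPM in Aldh1a1-high cells, against 88.0 and 157 CPM in Cyp11b1-high cells. Srd5a2, a steroid 5-alpha-reductase, had 416 and 552 CPM in Aldh1a1-high cells, against 14.2 and 23.2 CPM in Cyp11b1-high cells. Summed over members, all markers were thus higher in both libraries, though not read in every member. The secreted glutathione peroxidase Gpx3 had 679 and 963 CPM in Aldh1a1-high cells, against 9.53 and 2.82 CPM in Cyp11b1-high cells. Lgals3, the galactoside-binding lectin galectin-3, had 237 and 260 CPM in Aldh1a1-high cells, against 6.29 and 1.57 CPM in Cyp11b1-high cells. Its level was also read in another cell type, since 25.6% and 8.33% of 39 and 36 lymphocyte-like cells had a Lgals3 UMI, at medians of 3295 and 4283 UMIs per cell. Aldh1a1, Srd5a2 and Gpx3 had no UMI in those lymphocyte-like cells. Among members, Gpx3 had no UMI in 17 of 32 and 9 of 30 cells, and Lgals3 had none in 18 of 32 and 8 of 30. Srd5a2 had none in 6 and 4 members, and Abcb1b in 4 and 1.

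Of the steroidogenic markers, Star and Hsd3b1 were fixed by the rule, and Cyp11a1, Cyp21a1, Nr5a1 and Fdx1, which it did not use, were all read in the members of both libraries. The rule gene Star, which moves cholesterol into mitochondria, had 3824 and 4576 CPM in Aldh1a1-high cells, against 2787 and 3174 CPM in Cyp11b1-high cells. Hsd3b1, the 3-beta-hydroxysteroid dehydrogenase, had 9554 and 10605 CPM in Aldh1a1-high cells, against 5983 and 5362 CPM in Cyp11b1-high cells. Cyp11b1, the 11-beta-hydroxylase of glucocorticoid synthesis, was not required of members, yet 30 of 32 and 29 of 30 members reached 500 CPM. No member reached 500 CPM of Cyp11b2, and 31 of 32 and 30 of 30 had no Cyp11b2 UMI. The word inner in the usual name of such cells was not measured, because dissociated cells keep no position, so they are called Aldh1a1-high cells here.

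Quality and other cell types were compared before the genes. Medians were 18014 and 14376 UMIs per cell in Aldh1a1-high cells, against 17145 and 14021 in Cyp11b1-high cells, and no member was among the likely doublets. Mitochondrial genes took a median of 4.10% and 6.61% of UMIs in Aldh1a1-high cells, against 5.65% and 4.75% in Cyp11b1-high cells. Malat1, a nuclear RNA, was under 3000 CPM in 14 of 32 and 7 of 30 Aldh1a1-high cells (43.8% and 23.3%), against 28.4% and 18.5% of Cyp11b1-high cells, and results without these Malat1-poor members are a choice made after the data were seen. In those results the Cyp11b1-high cells were left unfiltered, Malat1-poor ones included, so the 2 sides were not treated alike. The summed level of Malat1 was 28216 and 55687 CPM in Aldh1a1-high cells, against 26755 and 37916 CPM in Cyp11b1-high cells, and was not called (0.41 ± 0.21, edgeR adjusted p = 0.226). That difference was 0.74 without the library 1 members and was called, and without those of library 2 it was -0.04. Lymphocyte and medullary chromaffin markers were at 0 in the members of both libraries, and glial ones were at 0 and 2.41 CPM. Macrophage markers summed to 5.34 and 14.5 CPM in Aldh1a1-high cells, against 59.7 and 14.1 CPM in Cyp11b1-high cells. Of the 11 listed, 2 had a UMI in library 1 members, Cd68 and Cd74. In library 2 members 4 did, C1qa, Cd68, Lyz2 and Tyrobp, and those at 0 in both libraries included Csf1r, Adgre1 and Ptprc. Endothelial markers summed to 8.89 and 21.7 CPM against 18.7 and 17.3 CPM in Cyp11b1-high cells, and stromal ones to 8.89 and 0 CPM against 20.1 and 8.63 CPM. The libraries shared 4 barcodes, none of them of a member.

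Aldh1a1 lies on chromosome 19 next to its close paralog Aldh1a7, and the pair is shown because their starts are alike while their levels differ. Windows of 300 bases that span the annotated starts (RefSeq, GRCm38.p6) are printed 5′ to 3′, with capitals for the longest run of bases that both windows hold, which is 65 bases long.
Aldh1a1 (chr19:20601718-20602017, plus strand): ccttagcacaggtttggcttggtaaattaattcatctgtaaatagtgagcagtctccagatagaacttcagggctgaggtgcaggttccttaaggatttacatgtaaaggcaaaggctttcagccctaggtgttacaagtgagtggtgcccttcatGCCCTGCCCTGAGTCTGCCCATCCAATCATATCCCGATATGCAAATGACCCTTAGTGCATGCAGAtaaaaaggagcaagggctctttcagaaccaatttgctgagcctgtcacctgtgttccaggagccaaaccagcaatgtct
Aldh1a7 (chr19:20727507-20727806, minus strand): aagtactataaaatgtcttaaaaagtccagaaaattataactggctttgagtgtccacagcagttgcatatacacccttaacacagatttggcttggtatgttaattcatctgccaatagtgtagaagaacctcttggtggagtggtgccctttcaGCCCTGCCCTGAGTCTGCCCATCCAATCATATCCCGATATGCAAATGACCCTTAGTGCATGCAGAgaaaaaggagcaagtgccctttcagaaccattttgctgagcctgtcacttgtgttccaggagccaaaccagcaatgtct
RefSeq lists 2 starts for Aldh1a1, and the one with the longer run in common is shown. No window of 50 bases in the last 500 bases of either gene's transcripts was found in the other, so 3′ reads of the pair can be told apart there.

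Aldh1a7 had 110 and 246 CPM in Aldh1a1-high cells, against 8.94 and 3.29 CPM in Cyp11b1-high cells. It was not tested, as a paralog of the gene that chose the cells. Only 9 of 32 and 12 of 30 members had an Aldh1a7 UMI, and 1 cell held 71.0% of the Aldh1a7 UMIs of the library 1 members. Aldh1a7 RNA was therefore uneven among cells that all held Aldh1a1.

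Members differed widely among themselves. Aldh1a1 ran over the members of library 1 with a lowest value of 525, a median of 2233 and a highest of 8866 CPM, and over those of library 2 between 753 and 12854 CPM. Just inside the threshold lay cells with 525, 556 and 579 CPM in library 1, and cells with 624, 533 and 508 CPM stayed outside because they held fewer than 3 UMIs. In library 2 the nearest members had 753, 959 and 1235 CPM, while a cell with 1453 CPM was left out, and cells with 496 and 417 CPM lay just below. Beyond the members, 50 of 4758 and 27 of 1903 other steroidogenic cells had any Aldh1a1 UMI. Library 1 put 14 of its members below 2000 CPM of Aldh1a1, and library 2 put 4 there, so the libraries filled the range differently.

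Within library 1, members with 2000 CPM of Aldh1a1 or more had 7702 CPM of Abcb1b, 669 of Srd5a2 and 1150 of Gpx3, against 1272, 135 and 158 CPM in members below 2000 CPM. The outer-zone ligand genes ran the other way there, with Wnt4 at 57.5 and Shh at 30.4 CPM in members at 2000 CPM or more, against 871 and 199 CPM in members below. The ACTH receptor gene Mc2r had 50.7 CPM in members at 2000 CPM or more, against 221 CPM in members below. Library 2, with only 4 cells below 2000 CPM, gave the same order for Abcb1b (8662 against 5250 CPM), Srd5a2 (601 against 152 CPM), Wnt4 (24.4 against 108 CPM), Shh (0 against 65.1 CPM) and Mc2r (10.8 against 65.1 CPM). Gpx3 had the opposite order in library 2, at 940 CPM in members at 2000 CPM or more, against 1150 CPM in members below. These are descriptions of subsets cut on the rule gene, and no test was made.

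The cells can also be sorted by Abcb1b, which reached 1000 CPM in 21 of 32 and 28 of 30 members, against 15 of 872 and 9 of 493 Cyp11b1-high cells. In library 1 all 11 members under 1000 CPM of Abcb1b had UMIs of both Mc2r and Wnt4. Of the 21 members at 1000 CPM or more, 3 had an Mc2r UMI and 5 a Wnt4 UMI, at medians of 18507 UMIs per cell against 14749 in the members under 1000 CPM. Library 2 held just 2 members under 1000 CPM of Abcb1b, both with a Wnt4 UMI. Of its 28 members at 1000 CPM or more, 4 had an Mc2r UMI and 6 a Wnt4 UMI. In library 1, members low in Abcb1b thus had Mc2r and Wnt4 UMIs that most members high in Abcb1b lacked.

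**Figure D1:**
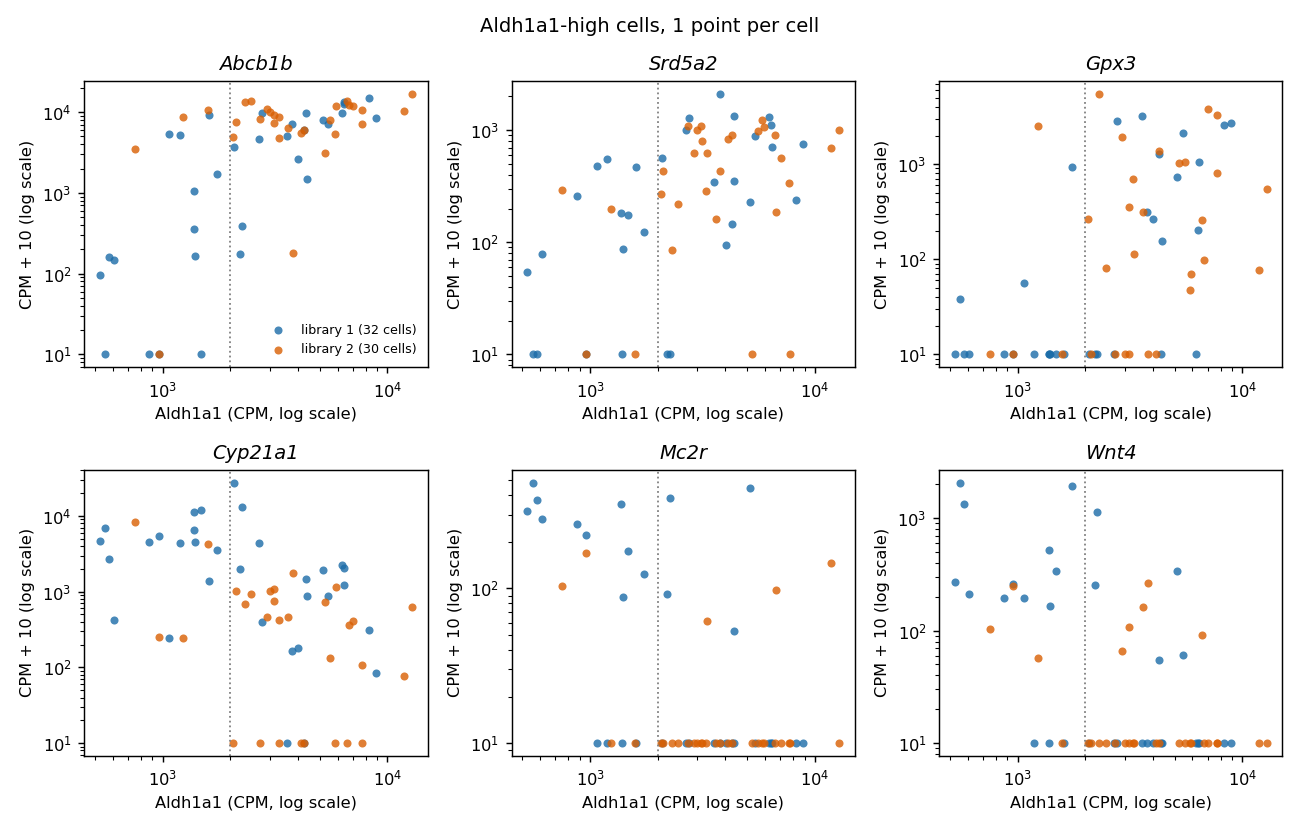
Each point is 1 Aldh1a1-high cell, with its Aldh1a1 level in CPM on the horizontal log axis and the level of the named gene plus 10 CPM on the vertical log axis, so cells without a UMI lie at 10. Abcb1b and Srd5a2 are mostly high to the right of the dotted line at 2000 CPM of Aldh1a1, where Gpx3 is spread widely, most cells have no Mc2r or Wnt4 UMI and Cyp21a1 spreads downward, above all in library 2.

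A few Cyp11b1-high cells held Aldh1a1 below the threshold of the rule, 25 in library 1 and 17 in library 2. Srd5a2 had 166 and 104 CPM in these cells, against 9.7 and 19.1 CPM in the 847 and 476 Cyp11b1-high cells without an Aldh1a1 UMI. Hhex, a homeobox transcription factor, had 228 and 235 CPM against 82.0 and 128 CPM, and Wnt4 had 947 and 369 CPM against 1761 and 1340 CPM. These 3 genes were named after their values were seen, and not all others lay between the members and the other Cyp11b1-high cells. Akr1b7 had 1710 and 3892 CPM in the cells with an Aldh1a1 UMI, against 1241 and 1578 CPM in those without, which is away from the lower members. Cyp21a1 had 5321 and 9214 CPM against 6385 and 6849 CPM, so its order differed between the libraries. Gpx3 had 209 CPM in these cells of library 1 and no UMI in those of library 2.

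UMIs were summed per population and library, and all genes were compared in 1 edgeR quasi-likelihood model with terms for population and library. The 4 populations in it were the Aldh1a1-high, Cyp11b1-high and Cyp11b2-high cells and the steroidogenic cells low in both Cyp11b genes. Differences below are log2 values, Aldh1a1-high minus Cyp11b1-high, with standard errors, and a gene counts as called at a Benjamini-Hochberg adjusted p under 0.05. The 4 rule genes, Aldh1a7 and the 4 other markers of the population received no test. Because the cells were split by RNA levels, a call says that a gene varied along with those levels over cells of the same libraries. Of 11375 genes tested, 979 were higher (8.61%) and 837 lower (7.36%) in Aldh1a1-high cells, and the median difference over all genes was -0.05. DESeq2 called 1226 higher and 665 lower, 64.8% of calls on the higher side against 53.9% with edgeR. With the Aldh1a1-high sum of library 2 left out, 518 were called higher and 397 lower, and without that of library 1 the counts were 735 and 631.

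The most raised genes were mostly near absent from Cyp11b1-high cells. Their choice favours this, since they were ranked by ratio with at least 20 CPM required on the higher side only. Mgst2, a microsomal glutathione transferase that can also make leukotriene C4, had 423 and 487 CPM in Aldh1a1-high cells, against 5.32 and 5.18 CPM in Cyp11b1-high cells (6.45 ± 0.18, edgeR adjusted p = 2.02e-11). It was read in 20 of 32 and 26 of 30 members. Sbsn, which encodes the secreted epithelial protein suprabasin, had 1046 and 1452 CPM in Aldh1a1-high cells, against 35 and 32.9 CPM in Cyp11b1-high cells (5.21 ± 0.17, edgeR adjusted p = 2.59e-11). It was the most abundant of the 12 genes with the largest rise, with UMIs in 29 of 32 and 28 of 30 members. Cabp1, a neuronal calcium-binding protein of the calmodulin family, had 121 and 234 CPM in Aldh1a1-high cells, against 1.88 and 2.20 CPM in Cyp11b1-high cells (6.37 ± 0.28, edgeR adjusted p = 1.2e-09). The groups were thus far apart in both libraries for all 3 genes.

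The other 9 of these 12 had varied roles. Tgfbi, an adhesion protein of the extracellular matrix induced by TGF-beta, had 210 and 511 CPM in Aldh1a1-high cells, against 7.91 and 10.8 CPM in Cyp11b1-high cells (5.20 ± 0.22, edgeR adjusted p = 5.63e-10). The runt-domain transcription factor Runx2, known for bone formation, had 81.8 and 210 CPM in Aldh1a1-high cells, against 0.713 and 6.12 CPM in Cyp11b1-high cells (5.77 ± 0.43, edgeR adjusted p = 7.33e-07). Tnfrsf1b, a receptor of tumour necrosis factor, had 42.7 and 86.7 CPM in Aldh1a1-high cells, against 0.713 and 1.57 CPM in Cyp11b1-high cells (5.95 ± 0.47, edgeR adjusted p = 7.4e-07). Runx2 was read in 14 of 32 and 21 of 30 members, and its level was higher there in both libraries. The others were Masp1, a protease of the lectin pathway of complement (6.43 ± 0.46), the matrix protein gene Matn2 (6.30 ± 0.59), S100a16, an EF-hand calcium-binding protein (5.71 ± 0.34), Sytl5 of the synaptotagmin-like family (5.75 ± 0.50) and the secreted protein gene Crispld2 (5.25 ± 0.52). Ahnak2 had 23 UMIs in members and 2 in Cyp11b1-high cells, a pooled ratio of 257 with a 95% counting interval of 63.4 to 2245. Without the library 1 members the differences of Masp1 and Sytl5 were 7.21 and 6.54, and without those of library 2 they were 5.83 and 4.97.

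**Figure D2:**
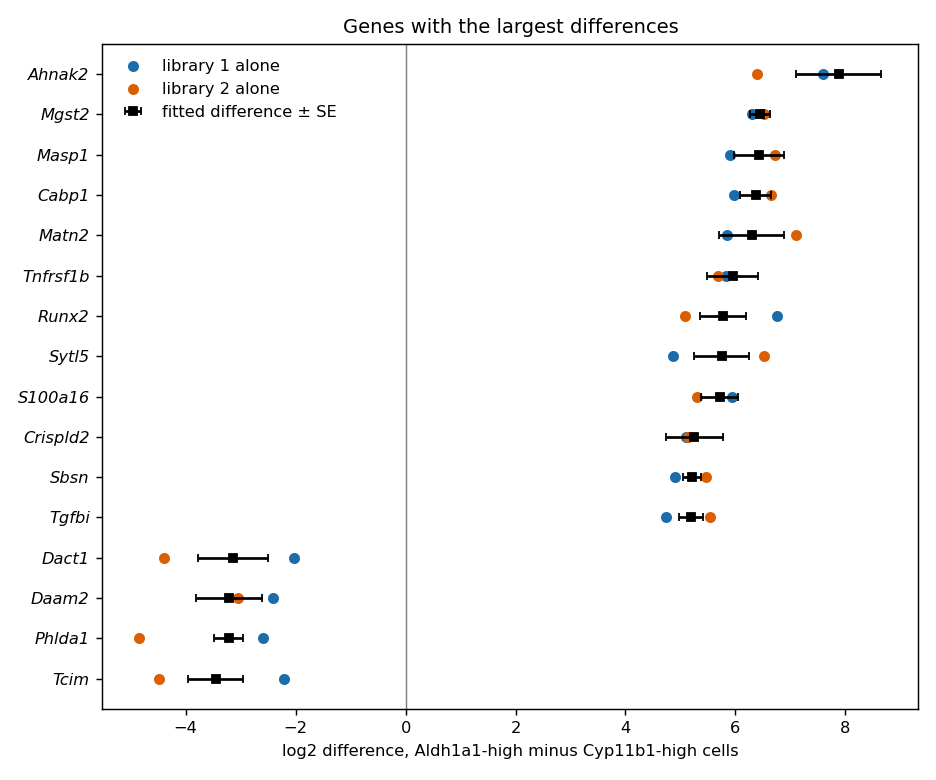
Log2 differences, Aldh1a1-high minus Cyp11b1-high cells, of the 12 genes with the largest rise and of the 4 among the 12 with the largest fall that had more than 3 UMIs in members. Squares with bars are the fitted values ± SE and circles are each library alone, with 1 UMI added to each sum. Every circle lies on the same side of 0 as its square, and the falls of Tcim, Phlda1, Dact1 and Daam2 were deeper in library 2.

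Promoters of raised genes are shown for Mgst2 and Sbsn, among the most firmly raised, because the AP-1 transcription factor genes Fosl2 and Jun were also higher (values below). The AP-1 motif TGANTCA, which reads the same on both strands, is in capitals in these 300-base RefSeq windows on GRCm38.p6.
Mgst2 (chr3:51660929-51661228, plus strand): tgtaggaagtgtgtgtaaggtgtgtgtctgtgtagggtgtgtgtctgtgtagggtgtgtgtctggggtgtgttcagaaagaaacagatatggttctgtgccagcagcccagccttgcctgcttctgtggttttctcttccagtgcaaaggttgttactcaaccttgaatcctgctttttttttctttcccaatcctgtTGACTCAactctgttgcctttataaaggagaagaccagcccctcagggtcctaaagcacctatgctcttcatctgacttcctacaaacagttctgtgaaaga
Sbsn (chr7:30751221-30751520, plus strand): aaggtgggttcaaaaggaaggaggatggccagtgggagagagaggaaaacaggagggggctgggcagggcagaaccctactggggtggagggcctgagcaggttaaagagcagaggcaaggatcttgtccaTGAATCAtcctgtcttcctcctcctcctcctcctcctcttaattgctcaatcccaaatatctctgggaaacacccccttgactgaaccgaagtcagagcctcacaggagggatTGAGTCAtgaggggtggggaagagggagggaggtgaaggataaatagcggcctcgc
Of the 12 most raised genes, 10 had a window in the table and 3 of these held the motif, namely Mgst2, S100a16 and Sbsn. By gene, the share was 9.19% over the 773 higher genes with a window, 5.51% over the 8878 tested genes with one, and 8.97% over all 27025 genes with one. By window it was 7.81% of all 32851. Of the windows at Aldh1a1's 2 starts, 1 held the motif. A match describes these letters only, and binding was not measured.

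Fosl2 had 461 and 691 CPM in Aldh1a1-high cells, against 50.7 and 76.5 CPM in Cyp11b1-high cells (3.25 ± 0.14, edgeR adjusted p = 7.85e-10). Jun had 754 and 944 CPM in Aldh1a1-high cells, against 303 and 533 CPM in Cyp11b1-high cells (1.13 ± 0.10, edgeR adjusted p = 2.15e-06). Both AP-1 genes were higher in each library, and Jun was read in 30 of 32 and 30 of 30 members. In the list of 20 tested immediate early genes, which respond within minutes to stimuli including dissociation, these 2 were the only ones higher. Dusp1 and Dusp6, phosphatases that switch off MAP kinases, were lower (-2.74 ± 0.49 and -2.56 ± 0.32), 16 were not called and the list's median was -0.24. Over all genes tested 8.61% were higher and 7.36% lower, so the list's counts were close to those shares. Without the library 1 members Dusp1 and Dusp6 stood at -2.29 and -3.15, and without those of library 2 at -3.83 and -2.19.

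Steroid synthesis genes moved in both directions. Of 9 core genes tested, 3 were higher, 3 lower and 3 not called, with a median of 0.20 against -0.05 over all genes. Cyp21a1, the 21-hydroxylase, had 3671 and 667 CPM in Aldh1a1-high cells, against 6355 and 6963 CPM in Cyp11b1-high cells (-1.79 ± 0.37, edgeR adjusted p = 0.00417). The fall was far deeper in library 2, where 23 of 30 members lay under 1000 CPM, against 14 of 493 Cyp11b1-high cells. In library 1 it was 11 of 32 members against 21 of 872 Cyp11b1-high cells. The difference was -3.16 without the Aldh1a1-high sum of library 1 and -0.95 without that of library 2, called both times. Cyp11a1, the side-chain cleavage enzyme that opens the pathway, had 5758 and 5646 CPM in Aldh1a1-high cells, against 4161 and 4625 CPM in Cyp11b1-high cells (0.44 ± 0.12, edgeR adjusted p = 0.0224). Its call ended at 0.24 when members with Malat1 under 3000 CPM were left out and all Cyp11b1-high cells were kept. Cyb5a, the cytochrome b5 electron carrier, was also higher (0.60 ± 0.10) and likewise lost its call without those members, at 0.37. Tspo was higher by 0.36 ± 0.11 and lost its call without the library 2 members, at 0.23, and without the Malat1-poor ones, at 0.17. Fdxr, the reductase that feeds electrons to mitochondrial P450 enzymes, was lower (-0.42 ± 0.11). Cyp11b2, the aldosterone synthase, had 1 UMI in all members and 656 in Cyp11b1-high cells, a pooled ratio of 29.4 in favour of Cyp11b1-high cells with a counting interval of 5.26 to 1163.

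Enzymes that reduce or oxidise steroids gave 4 higher, 2 lower and 7 not called of 13 tested. Akr1cl, an aldo-keto reductase-like gene, had 4118 and 5248 CPM in Aldh1a1-high cells, against 1332 and 1977 CPM in Cyp11b1-high cells (1.57 ± 0.12, edgeR adjusted p = 7.33e-07). H6pd, which makes NADPH in the endoplasmic reticulum for steroid reduction, had 51.6 and 55.4 CPM in Aldh1a1-high cells, against 16.9 and 21.2 CPM in Cyp11b1-high cells (1.56 ± 0.23, edgeR adjusted p = 0.000254). Both were higher in each library. Hsd11b1, the enzyme that regenerates active glucocorticoid, had no UMI in members and 1 in Cyp11b1-high cells.

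Receptor and accessory protein of ACTH went opposite ways. Mc2r had 132 and 16.9 CPM in Aldh1a1-high cells, against 391 and 348 CPM in Cyp11b1-high cells (-2.16 ± 0.27, edgeR adjusted p = 6.27e-05). Mrap, which carries the receptor to the cell surface, had 372 and 385 CPM in Aldh1a1-high cells, against 141 and 156 CPM in Cyp11b1-high cells (1.40 ± 0.14, edgeR adjusted p = 6.49e-06). The receptor was read in 14 of 32 and 5 of 30 members and its accessory protein in 28 of 32 and 27 of 30. The Mc2r difference was -4.28 without the library 1 members and -1.59 without those of library 2. Over the list of ACTH and cAMP signalling genes, 3 of 25 tested were higher, 4 lower and 18 not called. The catalytic subunit gene of protein kinase A, Prkaca, had 125 and 173 CPM in Aldh1a1-high cells, against 79.1 and 86.6 CPM in Cyp11b1-high cells (0.87 ± 0.18), and its call ended at 0.57 without the library 2 members. Pde2a, which breaks down cyclic nucleotides, had 7 UMIs in all members, none of them in library 2, and was lower (-2.51 ± 0.50, and -1.72 without the library 2 members).

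Markers of the zona glomerulosa fell together, 10 of 12 tested being lower, none higher and 2 not called, with a median of -2.26. Several were also read in most Cyp11b1-high cells, so they did not mark glomerulosa cells alone here. Wnt4 was read in 92.4% and 88.0% of Cyp11b1-high cells, Shh in 80.7% and 75.1%, and Kcnk9 in 74.5% and 66.1%. Fewer of them held Agtr1b (24.5% and 18.9%) or Cyp11b2 (19.6% and 10.8%). Wnt4, the WNT ligand of the outer cortex, had 443 and 33.7 CPM in Aldh1a1-high cells, against 1738 and 1293 CPM in Cyp11b1-high cells (-2.63 ± 0.36, edgeR adjusted p = 0.000126). Shh, the hedgehog ligand of outer cortical cells, had 110 and 7.23 CPM in Aldh1a1-high cells, against 263 and 351 CPM in Cyp11b1-high cells (-2.16 ± 0.37, edgeR adjusted p = 0.000927). Both ligands were lower in each library and lowest in the library 2 members. Kcnk9, a background potassium channel, had 85.4 and 7.23 CPM in Aldh1a1-high cells, against 269 and 288 CPM in Cyp11b1-high cells (-2.36 ± 0.39). In library 1 the 3 members with most held 81.1% of the members' Wnt4 UMIs, and likewise 61.3% for Shh and 79.2% for Kcnk9. The median of Wnt4 was 22.6 CPM in those members, against 1366 CPM in Cyp11b1-high cells of library 1. The angiotensin receptor genes were lower too, Agtr1a with 114 and 53 CPM in Aldh1a1-high cells, against 397 and 300 CPM in Cyp11b1-high cells (-1.97 ± 0.20), and Agtr1b with 2 UMIs in all members and 635 in Cyp11b1-high cells. Without the library 1 members the differences were -5.22 for Wnt4, -5.39 for Shh and -5.40 for Kcnk9. Without the library 2 members those of Wnt4, Shh and Kcnk9 were -1.95, -1.38 and -1.54, still called. DESeq2 did not call Shh (-2.66) or Kcnk9 (-2.63). Rgs4 (-1.82 ± 0.50), with no UMI in the library 2 members, was called by edgeR but not by DESeq2, and not without the library 2 members (-1.0) or without the Malat1-poor members (-1.53).

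Related lists showed the same genes in a wider frame. Of 26 tested genes of WNT signalling 2 were higher, 7 lower and 17 not called, with a median of -0.41. Axin2, a target that WNT signalling induces and that restrains it, had 51.6 and 45.8 CPM in Aldh1a1-high cells, against 89.9 and 91.7 CPM in Cyp11b1-high cells (-0.84 ± 0.19), but the call ended when either library's members were left out (-0.97 and -0.78). Nkd1, another feedback inhibitor, was lower at -2.17 ± 0.39, at -4.34 without the library 1 members and at -1.63 without those of library 2. Of 31 genes of angiotensin, potassium and calcium signalling 3 were higher, 9 lower and 19 not called. Higher among them were Kcnk2, a mechanosensitive potassium channel, with 60.5 and 128 CPM in Aldh1a1-high cells, against 10.1 and 4.55 CPM in Cyp11b1-high cells (3.51 ± 0.42), and the phospholipase C gene Plcb4 (2.30 ± 0.22). The Kcnk2 difference was 4.36 without the library 1 members and 2.72 without those of library 2, called both times. Potassium channel genes of that list were thus not all lower, since Kcnk2 and Kcnk9 went opposite ways in both libraries. Kcnk3 was also called lower, and Kcnk2 was the only potassium channel gene of the list called higher.

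Markers of the zona fasciculata did not rise as a set, with 1 of 7 tested higher (Mrap), 3 lower and 3 not called. Akr1b7, an aldose reductase-like gene of fasciculata cells, had 752 and 226 CPM in Aldh1a1-high cells, against 1254 and 1689 CPM in Cyp11b1-high cells (-1.55 ± 0.28, edgeR adjusted p = 0.00135). The others lower were Mc2r and Soat1, which esterifies cholesterol (-0.61 ± 0.12). Without the library 1 members the Akr1b7 difference was -2.61, and without those of library 2 it was -0.97, called both times.

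Of 6 genes listed for the X-zone, 4 were too low to fit, and the 2 tested, Akr1cl and Thrb, were both higher. Thrb, a thyroid hormone receptor, had 40.9 and 96.3 CPM in Aldh1a1-high cells, against 12.6 and 19.9 CPM in Cyp11b1-high cells (2.11 ± 0.29, edgeR adjusted p = 0.000151). The X-zone genes Akr1c18 and Pik3c2g had no UMI in either population. The limit for 3 UMIs was 3.07 CPM over all members and 0.138 CPM over all Cyp11b1-high cells. Akr1c18 had no UMI in the other populations of the fit either. These X-zone genes were thus unread beside a raised Thrb. Akr1cl was read in 98.5% and 98.4% of Cyp11b1-high cells, so it was not particular to members.

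**Figure D3:**
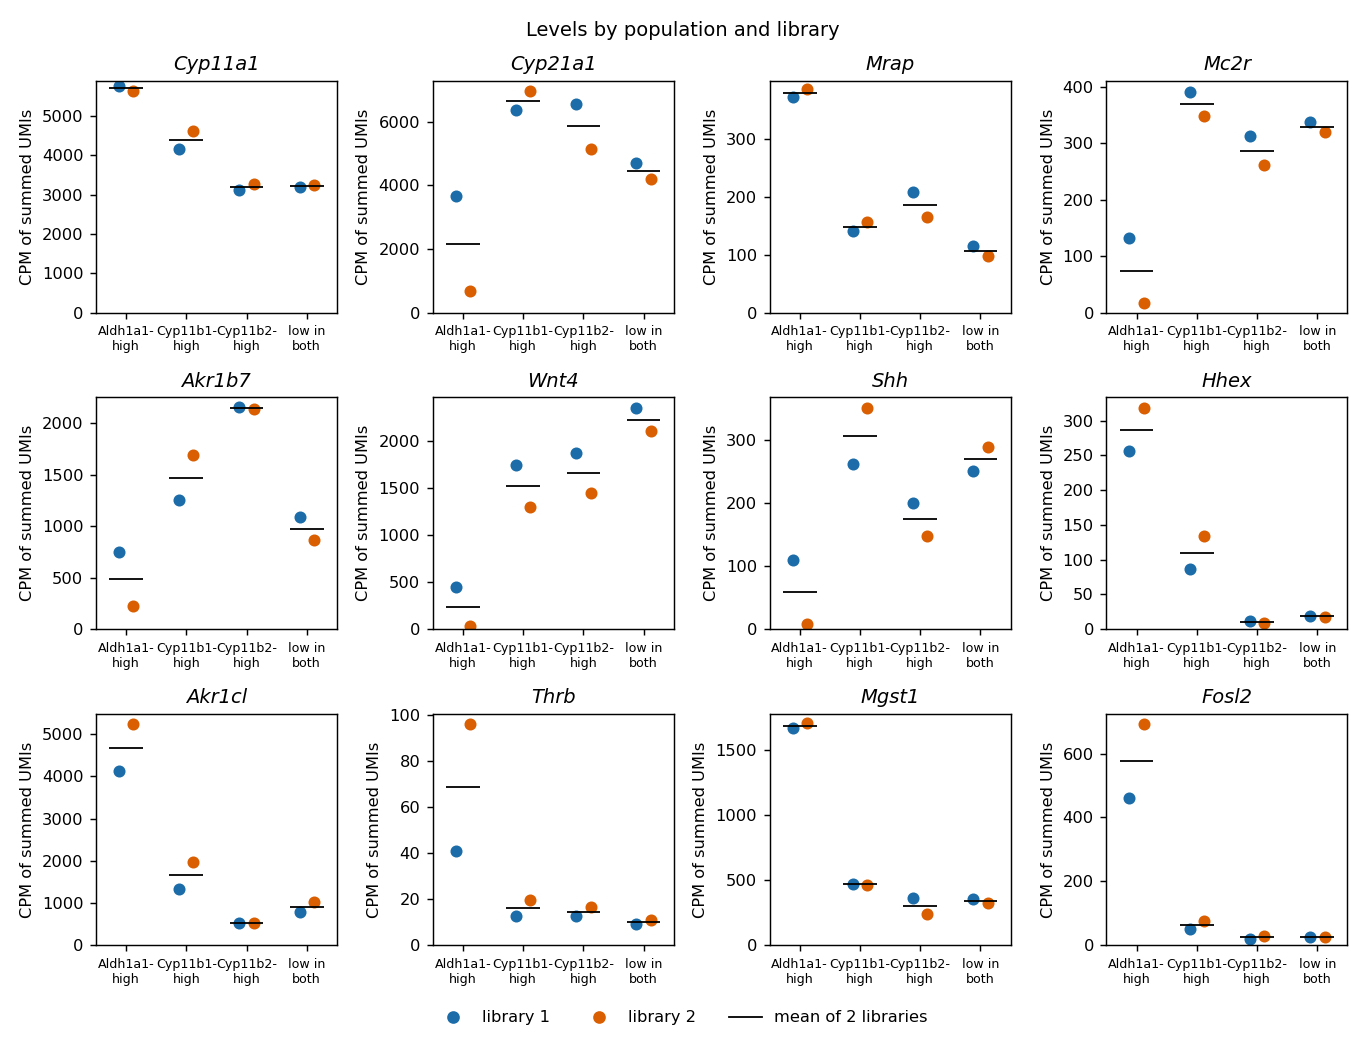
Levels in CPM of UMIs summed per population and library, for 12 genes in the 4 populations, with circles for the libraries and a line at their mean. Mrap, Hhex, Akr1cl, Thrb, Mgst1 and Fosl2 are highest in Aldh1a1-high cells in both libraries, and Cyp21a1, Mc2r, Akr1b7, Wnt4 and Shh are lowest there.

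The list of hormone-binding and adrenal nuclear receptors and transcription factors gave 5 higher, 2 lower and 17 not called of 24. Hhex had 256 and 318 CPM in Aldh1a1-high cells, against 86.1 and 134 CPM in Cyp11b1-high cells (1.47 ± 0.18, edgeR adjusted p = 6.59e-05), with UMIs in 27 of 32 and 23 of 30 members. Nr5a1, which encodes SF1, the factor that defines steroidogenic cells, had 224 and 166 CPM in Aldh1a1-high cells, against 273 and 234 CPM in Cyp11b1-high cells (-0.32 ± 0.12, edgeR adjusted p = 0.0956), which did not pass the threshold. Nr0b1, whose product Dax1 represses SF1, had 6 UMIs in members and was called lower (-2.11 ± 0.55), but not without the library 2 members (-1.62), and stood at -3.43 without those of library 1.

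The retinoid list, to which Aldh1a1 belongs, did not move as a set, with 2 of 17 tested higher, 2 lower and 13 not called and a median of -0.20. Retsat, which saturates retinol, had 48.0 and 40.9 CPM in Aldh1a1-high cells, against 20.1 and 17.6 CPM in Cyp11b1-high cells (1.28 ± 0.24, edgeR adjusted p = 0.002). Adh1, an alcohol dehydrogenase that oxidises retinol, had 81.8 and 55.4 CPM in Aldh1a1-high cells, against 151 and 158 CPM in Cyp11b1-high cells (-1.09 ± 0.16, edgeR adjusted p = 0.000247). Aldh1a2, the other retinaldehyde dehydrogenase read here, was lower in Aldh1a1-high cells, with 56.9 and 12 CPM against 111 and 106 CPM in Cyp11b1-high cells (-1.48 ± 0.34). Its call ended at -0.87 without the library 2 members, and without those of library 1 the difference was -3.21. Rarb, a receptor gene that retinoic acid induces, had 3 UMIs in all members and 11 in Cyp11b1-high cells, too few to fit.

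Glutathione transferases were among the genes called in both directions. Of 36 antioxidant and glutathione genes 8 were higher, 5 lower and 23 not called. Mgst1, a microsomal glutathione transferase, had 1665 and 1703 CPM in Aldh1a1-high cells, against 471 and 465 CPM in Cyp11b1-high cells (1.90 ± 0.13, edgeR adjusted p = 1.5e-07). Catalase, encoded by Cat, had 114 and 224 CPM in Aldh1a1-high cells, against 64.9 and 72.6 CPM in Cyp11b1-high cells (1.29 ± 0.19), and the difference was 0.79 without the library 2 members. The metallothionein Mt1 had 1083 and 453 CPM in Aldh1a1-high cells, against 384 and 203 CPM in Cyp11b1-high cells (1.40 ± 0.10), although 1 cell held 50.6% of the library 1 members' UMIs. Gstm2, a cytosolic glutathione transferase, was lower (-1.24 ± 0.22), at -2.47 without the library 1 members and -0.80 without those of library 2.

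In the list of xenobiotic enzymes and exporters 4 of 18 tested were higher, 2 lower and 12 not called. Abcb1a, the other P-glycoprotein gene, had 44.5 and 116 CPM in Aldh1a1-high cells, against 1.75 and 3.29 CPM in Cyp11b1-high cells (5.02 ± 0.39, edgeR adjusted p = 6.71e-07), and the difference was 4.40 without the library 2 members. Of the windows of 50 bases at the 3′ end of Abcb1b 3.10% also occur in Abcb1a, so its few UMIs may include some of the far more abundant Abcb1b. Xdh, xanthine dehydrogenase, had 32 and 77.1 CPM in Aldh1a1-high cells, against 3.37 and 9.88 CPM in Cyp11b1-high cells (3.18 ± 0.37, edgeR adjusted p = 3.15e-05).

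Lipid droplet and sterol transport genes were among those higher. Of 22 genes for cholesterol uptake, esters and efflux 8 were higher, 2 lower and 12 not called, with a median of 0.35. Plin5, a lipid droplet coat protein, had 65.8 and 96.3 CPM in Aldh1a1-high cells, against 7.45 and 16.5 CPM in Cyp11b1-high cells (2.91 ± 0.36, edgeR adjusted p = 8.48e-05). Abca1, the cholesterol efflux pump, had 137 and 313 CPM in Aldh1a1-high cells, against 66.9 and 122 CPM in Cyp11b1-high cells (1.30 ± 0.16, edgeR adjusted p = 5.42e-05). Both were higher in each library, and Stard5, a cytosolic sterol carrier, was too (2.13 ± 0.33). Cholesterol synthesis gave 3 higher, 1 lower and 20 not called of 24 genes, with a median of -0.35. In that list Fdps was called (1.09 ± 0.21), but 1 cell held 61.6% of its library 1 UMIs, and the call ended at 0.68 without the library 1 members and at 0.17 without the Malat1-poor ones.

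Most mitochondrial genes were not called, which was also so for 9559 of all 11375 genes tested (8.61% higher and 7.36% lower). Nuclear-encoded oxidative phosphorylation genes gave 3 higher, 1 lower and 48 not called of 52, led by Sdhb of complex II with 455 and 407 CPM in Aldh1a1-high cells, against 238 and 242 CPM in Cyp11b1-high cells (0.90 ± 0.11, edgeR adjusted p = 4.79e-05). Of 13 mitochondrially encoded genes 1 was lower, mt-Co1 (-0.61 ± 0.15), and 12 were not called. Among 24 genes of fatty acid oxidation and ketone metabolism 2 were higher, 2 lower and 20 not called. Cpt1a, which admits long-chain fatty acids to mitochondria, had 162 and 234 CPM in Aldh1a1-high cells, against 77.3 and 93.6 CPM in Cyp11b1-high cells (1.25 ± 0.16).

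Genes of interferon response and antigen presentation gave 10 higher, 2 lower and 17 not called of 29, with a median of 0.80. B2m, the light chain of class I molecules, had 535 and 544 CPM in Aldh1a1-high cells, against 220 and 158 CPM in Cyp11b1-high cells (1.55 ± 0.14, edgeR adjusted p = 4.13e-06), and was read in 31 of 32 and 29 of 30 members. The class I heavy chains H2-K1 (1.12 ± 0.10) and H2-D1 (1.25 ± 0.10), named here after their values were seen, were higher too, and the class Ib gene H2-T23 rose by 1.45 ± 0.23. Ptprc, the pan-leukocyte marker, was at 0 in members of both libraries, but other macrophage markers had 3 and 6 UMIs in them. Ly6a was called at 5.03 ± 0.64, but 1 cell held 97.6% of its UMIs in library 1 and 1 cell 83.7% in library 2, and without the Malat1-poor members the difference was -0.20. Rtp4, an interferon-induced chaperone gene, lost its call without the library 1 members, at 1.71 against 2.55 ± 0.40 with both.

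Cell surface and matrix genes were split, 9 of 34 tested being higher, 7 lower and 18 not called. Itga9, an integrin subunit, had 215 and 412 CPM in Aldh1a1-high cells, against 44.5 and 82.2 CPM in Cyp11b1-high cells (2.38 ± 0.14, edgeR adjusted p = 3.14e-08). Timp2, an inhibitor of matrix metalloproteinases, had 185 and 301 CPM in Aldh1a1-high cells, against 40.7 and 42.0 CPM in Cyp11b1-high cells (2.56 ± 0.19, edgeR adjusted p = 3.28e-07). Ncam1, a neural cell adhesion molecule, had 74.7 CPM in Aldh1a1-high cells of each library, against 10.2 and 8.94 CPM in Cyp11b1-high cells (2.96 ± 0.27). These 3 were higher in both libraries, while the integrin gene Itga6 was lower, with 133 and 67.4 CPM in Aldh1a1-high cells, against 282 and 378 CPM in Cyp11b1-high cells (-1.56 ± 0.23). Without the library 1 members the Itga6 difference was -2.50 and without those of library 2 it was -1.02. The vascular growth factors also split, Vegfd being higher (2.35 ± 0.28, and 1.70 without the library 1 members) and Vegfa lower, with 72.9 and 106 CPM in Aldh1a1-high cells, against 174 and 324 CPM in Cyp11b1-high cells (-1.38 ± 0.14, edgeR adjusted p = 9.53e-06).

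No cell cycle gene was called higher, with 3 of 23 tested lower, 20 not called and a median of -1.33. The lower ones were the D-type cyclins of G1 phase. Ccnd1 had 105 and 4.82 CPM in Aldh1a1-high cells, against 393 and 255 CPM in Cyp11b1-high cells (-2.40 ± 0.33, edgeR adjusted p = 0.000152), and Ccnd2 had 571 and 267 CPM against 1292 and 869 CPM in Cyp11b1-high cells (-1.33 ± 0.13). The Ccnd1 difference was -5.79 without the library 1 members, among whom 3 cells held 78.0% of the Ccnd1 UMIs. Without the library 2 members the Ccnd1 difference was -1.82. Of 29 genes of growth arrest and cell death 4 were higher, 7 lower and 18 not called. Gadd45a, a stress-induced gene, was higher (1.67 ± 0.25). In contrast, Cdkn1c, a cell cycle inhibitor, had 62.3 and 16.9 CPM in Aldh1a1-high cells, against 276 and 296 CPM in Cyp11b1-high cells (-2.69 ± 0.23, edgeR adjusted p = 1.38e-06). The Cdkn1c difference was -4.03 without the library 1 members and -2.18 without those of library 2.

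**Figure D4:**
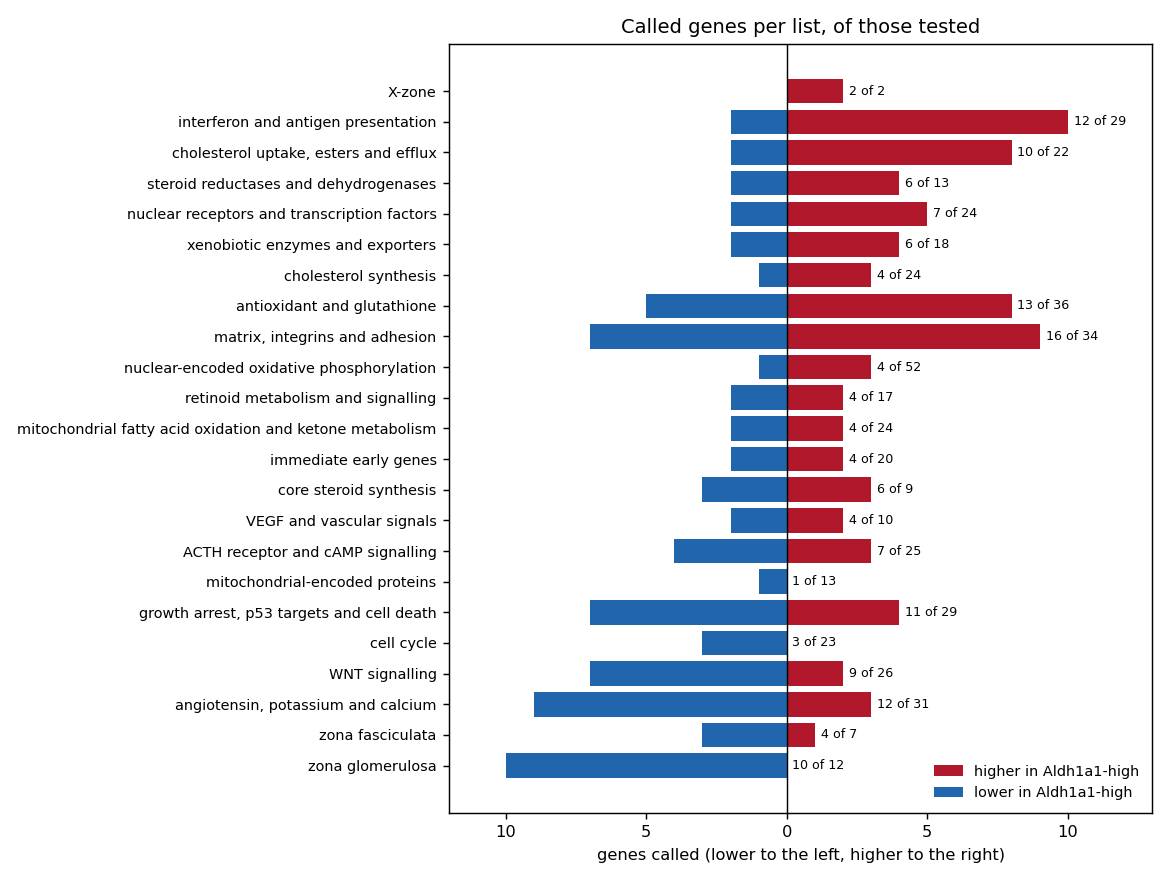
Bars count the genes of each list called higher (red, to the right of 0) or lower (blue, to the left) in Aldh1a1-high than in Cyp11b1-high cells, and the text beside each bar gives the called genes of those tested. The called zona glomerulosa markers are all on the lower side. Of the called interferon and antigen presentation genes 10 are higher and 2 lower, with 17 of 29 not called. For cholesterol uptake, esters and efflux 8 are higher and 2 lower, with 12 of 22 not called. Fatty acid oxidation has 2 called each way, and cholesterol synthesis has 3 higher and 1 lower of 24. Over all genes tested 8.61% were higher and 7.36% lower.

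The 12 genes with the largest fall by ratio need care. The haemoglobin genes Hbb-bs, Hba-a1, Hba-a2 and Hbb-bt are among them, with 2 UMIs of Hbb-bs and none of the other 3 in members. Erythroid markers summed to 1.78 and 2.41 CPM in Aldh1a1-high cells, against 942 and 1086 CPM in Cyp11b1-high cells, but 5 cells held 91.8% of the erythroid UMIs of the Cyp11b1-high cells in library 1 and 99.96% in library 2. Only 72 of 872 and 8 of 493 Cyp11b1-high cells had any. When Cyp11b1-high cells with more than 1 UMI of other cell types' markers were left out, Hbb-bs stood at 0.87 and was not called, which that choice fixes, because the haemoglobin genes are themselves among those markers. Ly6k, a surface protein gene of the Ly6 family, had no UMI in members and 1416 in Cyp11b1-high cells, at least 23.7-fold lower against a limit of 3 UMIs over all members, although just 4.01% and 4.26% of Cyp11b1-high cells had a Ly6k UMI.

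The rest of these 12 were spread over many cells. Phlda1, a growth factor-responsive gene, had 56.9 and 9.63 CPM in Aldh1a1-high cells, against 356 and 345 CPM in Cyp11b1-high cells (-3.22 ± 0.27, edgeR adjusted p = 1.08e-06), and it was read in 83.9% and 73.6% of Cyp11b1-high cells but in 11 of 32 and 3 of 30 members. Tcim, a small regulator of WNT signalling, had 4 UMIs in members (-3.45 ± 0.50), and Dact1 and Daam2, which act in WNT and planar polarity signalling, had 5 and 4 (-3.14 ± 0.63 and -3.21 ± 0.60). Rundc3a and Tpbgl had 3 UMIs each, with pooled ratios of 11 (interval 3.74 to 53.4) and 10.2 (3.46 to 49.4) in favour of Cyp11b1-high cells. Library 2 members held no UMI of Tcim, Dact1, Rundc3a or Tpbgl, so no usable difference can be given for these without the library 1 members, and it was -5.13 for Phlda1 and -4.16 for Daam2. Leaving out the library 2 members gave -2.51 for Tcim, -2.23 for Dact1, -2.73 for Daam2, -2.70 for Rundc3a, -2.64 for Tpbgl and -2.62 for Phlda1.

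Falls were deeper in library 2 than in library 1 for 366 of the 465 genes lower by at least 2-fold, and rises were larger there for 316 of the 570 genes higher by at least 2-fold. Library 2 also had 26 of its 30 members at 2000 CPM of Aldh1a1 or more, against 18 of 32 in library 1. With only such members kept, a choice made after the data were seen, Wnt4 stood at -5.23, Mc2r at -3.65 and Akr1b7 at -3.09 in the fit over both libraries. The part that the mix of members played in the difference between libraries was not tested.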

How the data were processed

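Droplet 3′ RNA libraries were made with kit version 3.1, per the labels' protocols. The deposited files hold UMI counts per gene and barcode that the authors made with Cell Ranger (version 3.1.0 per the file headers) on mm10, per the submitters' processing notes. Totals were 92905273 UMIs over 5040 barcodes in library 1, and 28023733 over 2288 in library 2. Cells with at least 1000 UMIs, 500 genes and at most 30% mitochondrial UMIs were kept. Members and lists were chosen with earlier results of these data known. Doublets were scored (scanpy 1.11.5) and left in, and free RNA was not subtracted. Sums over 4 populations in 2 libraries were fitted with edgeR 4.0.16 (R 4.3.3, TMM, low-count filter, 3 residual degrees of freedom, Benjamini-Hochberg), without the reporter features. P-values rest on how differences among all 4 populations varied between the 2 libraries. Each gene's spread was drawn toward that of all genes, which added 11.5 prior degrees of freedom to the 3 residual ones. Most of the error estimate thus came from other genes. On simulated data over 10957 genes, this comparison called 48 of 95 genes changed 2-fold, 73 of 93 changed 4-fold and 7 of 10769 unchanged ones. The simulation drew all populations from the Cyp11b1-high means, with 1 spread for all genes, no library effect and no unevenness among cells. Its rates therefore need not hold for the real data. Named genes were the 12 largest ratios each way with at least 20 CPM on the higher side, the same sign in both libraries and no gene-model name, at most 4 for each list each way, and a fixed set, of which not all are printed. Totals under 3 UMIs were set to 3 in ratios. Intervals and limits cover counting error only. Alternatives were RLE and DESeq2 1.42.0, no filter, no library term, 2 populations, thinned cells, other cell filters, and members of each library left out. Of 31057 features, 30934 matched GENCODE vM21.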

Additional observations from a re-analysis of the deposited data

Results flagged for a closer look

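Reporter and transgene features lay outside the comparison and were read in Aldh1a1-high cells above the limit that a count of 0 allows. The level of eGFP was 1935 and 1479 CPM in their libraries, against 2341 and 2509 CPM in Cyp11b1-high cells. Cre stood at 30.2 and 21.7 CPM in Aldh1a1-high cells, against 50.2 and 56.5 CPM in Cyp11b1-high cells. The bGH feature stood at 308 and 248 CPM in Aldh1a1-high cells, against 344 and 372 CPM in Cyp11b1-high cells. TdTomato had no UMI in the members of either library.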

How the results depend on the processing

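Calls rest on 62 cells from 2 libraries. The edgeR counts of 979 higher and 837 lower genes moved to 415 and 213 without the library term and to 365 and 388 after each cell was thinned to 5000 UMIs. Leaving out 1 library's Aldh1a1-high sum gave 518 to 735 higher and 397 to 631 lower, the lone sum being assumed to vary like the other populations. Over the other settings, 3 of them chosen after the data were seen (members with 2000 CPM of Aldh1a1 or more, members with Malat1 at 3000 CPM or more, comparison cells without other cell types' UMIs), the higher count ran between 737 and 1226 and the lower between 664 and 1150. Without the library term 58 named genes lost their call. Ahnak2 and Crispld2 could not be fitted after thinning, nor Ahnak2 without the library 1 members. No gene was called in opposite directions under any setting run. Without the low-count filter the median difference was -0.20, against -0.05. Of 127 named genes that were called, Hbb-bs turned to 0.87 against comparison cells without other cell types' UMIs, a turn built into that choice because haemoglobin genes are among those markers, and Ly6a to -0.20 without Malat1-poor members. The library term is the block of the main fit, and no other paired analysis was possible because the libraries form 1 group. Genes with few UMIs in 62 cells are limited by depth, at 3.07 CPM for 3 UMIs.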
